A study of Mus musculus with 617 samples.

Results

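The cells described here are the 74 single cells of the motor neuron cultures, 39 from a female and 35 from a male line of mouse embryonic stem (ES) cells, out of 617 cells in the series. They were chosen by their column names, as the cells of the shared ES, Epi and neuron expression table that carry neither an ES nor an Epi name. Both lines came from crosses of a CAST/EiJ male with a C57BL/6J female. Embryoid bodies made from them received retinoic acid and SAG, an agonist of the receptor Smoothened. The labels state that the protocol yields postmitotic motor neurons and also several kinds of interneurons, and they name no sort or reporter. The same table holds 373 cells of 6 other cultures from these lines: ES cells with 2i and LIF (60 female, 51 male), with serum and LIF (68 female, 52 male), and stem cells kept with Activin A and FGF2 and labelled Epi (79 female, 63 male). Each culture was 1 sample, so cells within it are not replicates, and the line and the sex of the cells cannot be told apart. The 95% intervals of shares of cells are exact (Clopper-Pearson) and cover only counting error.

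Retinoic acid gives neural cells of the embryoid body a hindbrain or spinal identity, and Hedgehog signalling through Smoothened gives them a ventral one. Motor neurons are the cholinergic neurons of the ventral neural tube that project to muscles, glands and autonomic ganglia. They share Isl1, a LIM homeodomain factor. Mnx1 and Lhx3 mark somatic motor neurons of the spinal cord, and Phox2a marks the visceral and branchial motor neurons of the hindbrain. Embryoid bodies also form extraembryonic endoderm, which lines the yolk sac: Gata4, Gata6, Sox17 and Foxa2 regulate it, its parietal form secretes a thick basement membrane, and its visceral form absorbs and transports nutrients. Retinoic acid is a long known inducer of such endoderm in embryonal carcinoma and ES cells.

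The deposited values are FPKM, fragments scaled to transcript length and library size, and the read depth per cell is unknown. Genes at 1 FPKM or more numbered from 4332 to 11893 in female cells (median 9313) and from 6744 to 12914 in male cells (median 9234). Of the 74 cells, 1 female cell had less than 50% of its culture's median. The highest Pearson r between 2 of the cells was 0.817, so no cell was present as a duplicate column. No doublet caller was run on these 74 cells.

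Ward clustering on the 1000 most variable genes gave 4 clusters. Only 22 of the 74 cells were neuron-like (7 female and 15 male), fewer than the 30 that were endoderm-like (13 female and 17 male). A further 5 cells, all female, had high Pou5f1, the central factor of pluripotency, and 17 cells (14 female and 3 male) were led by Id3 and were given no cell type name. The label motor neuron therefore names the protocol and not the identity of most cells. The genes that separated the neuron-like cluster from the other cells most were Elavl4, Resp18, Scg5, Tagln3, Fgf13, Snap25, Rtn1, Stmn3, Fxyd7 and Ly6h. Those of the endoderm-like cluster were Srgn, Fxyd3, Spink1, F3, Sox17, Ctsh, Lama1, Hs3st1, Pga5 and S100g. These genes were among those clustered, so they describe the clusters and test nothing. The 22 neuron-like and the 30 endoderm-like cells stayed together when 3 or 5 clusters were drawn, whereas at 3 clusters the Pou5f1-high and Id3-high cells formed a single group of 22. At 6 clusters the endoderm-like cells split almost by culture, into 12 female with 1 male and 1 female with 16 male cells. A cluster that is mostly of 1 culture may be that culture and not a type, which applies to the Pou5f1-high and Id3-high cells.

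**Figure D1:**
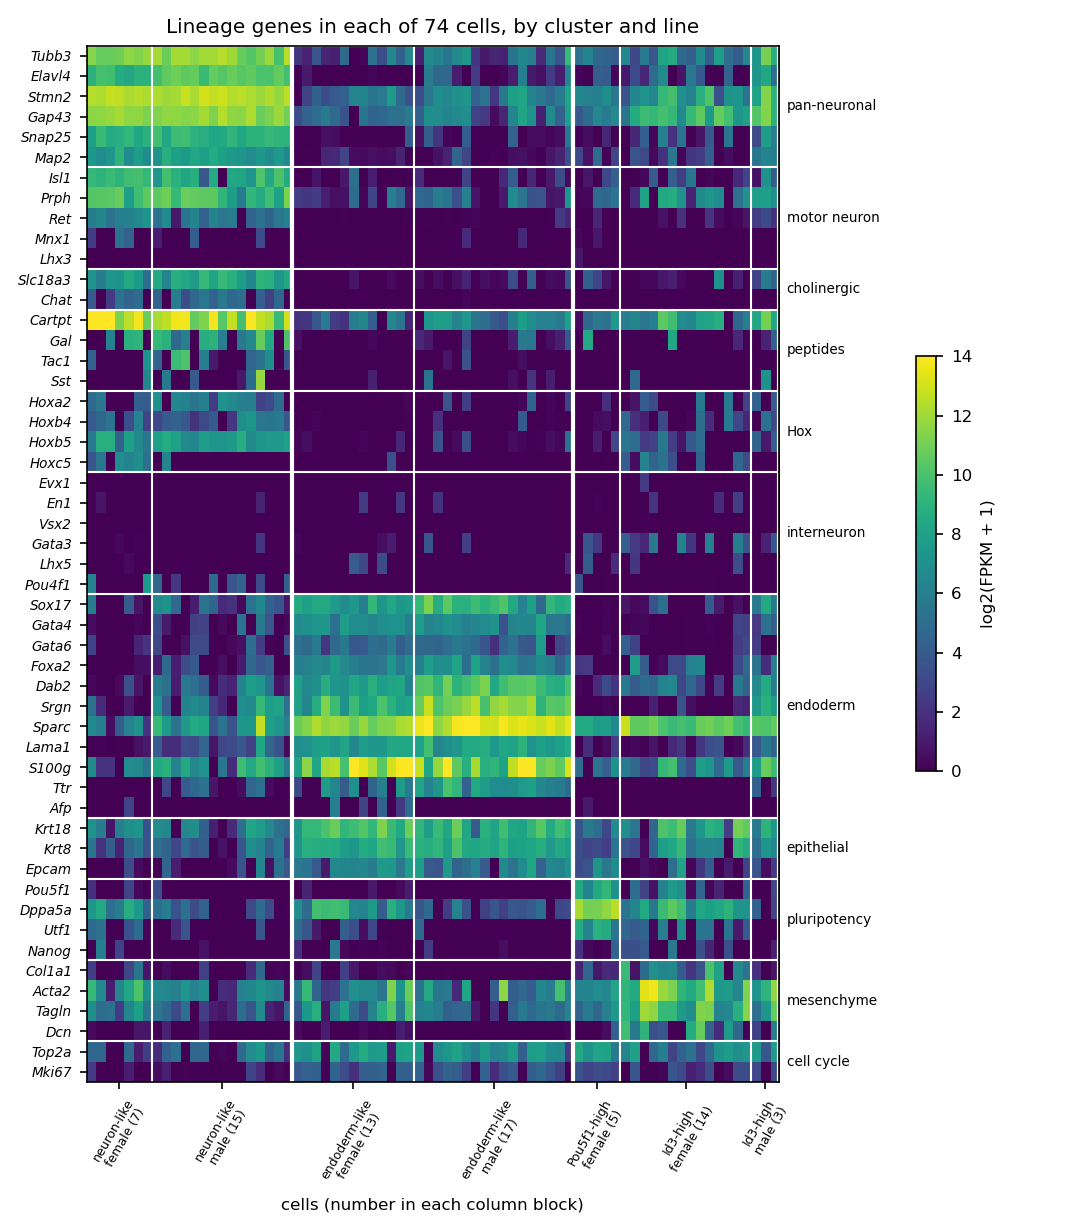
Heat map of log2(FPKM + 1) in the 74 cells (columns, ordered by cluster and within it by culture) for lineage genes (rows, grouped by list). Neuronal genes are high in the 22 neuron-like cells, endoderm genes in the 30 endoderm-like cells, and Pou5f1, Dppa5a and Utf1 in the 5 Pou5f1-high female cells.

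Tubb3, the neuronal beta-tubulin (ENSMUSG00000062380, GRCm38 chr8:123411424-123422015, plus strand), was present at 1 FPKM or more in 37 of 39 female cells (94.9%, 95% interval 82.7 to 99.4%) and 35 of 35 male cells (100%, 95% interval 89.997 to 100%), but also in 83.6% of the 373 ES and Epi cells, where its median was 9.19 FPKM. Detection at this level thus hardly separates these cultures from the ES and Epi ones, nor the neuron-like cells from the rest. In the neuron-like cells Tubb3 ranged from 1652 to 3713 FPKM with a median of 2632 in the female and from 968.8 to 5982 FPKM with a median of 4055 in the male culture. In the endoderm-like cells it ranged from 0 to 93.6 FPKM with a median of 9.48 in the female and from 1.01 to 692.6 FPKM with a median of 43.1 in the male culture. The ranges of the 2 clusters did not overlap in either culture. The clusters were drawn from expression in these same cells, so this describes them and tests nothing. Isl1 (ENSMUSG00000042258, chr13:116298281-116309689, minus strand) reached 1 FPKM in 17 of 39 female cells (43.6%, 95% interval 27.8 to 60.4%) and 22 of 35 male cells (62.9%, 95% interval 44.9 to 78.5%), against 8.04% of ES and Epi cells.

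Cartpt, which encodes the precursor of the CART neuropeptides (ENSMUSG00000021647, chr13:99898489-99901091, minus strand), reached 1 FPKM in 36 of 39 female cells (92.3%, 95% interval 79.1 to 98.4%) and 34 of 35 male cells (97.1%, 95% interval 85.1 to 99.9%), against 4 of 373 ES and Epi cells. Its level varied widely among cells, from 0 to 17720.2 FPKM in the female culture (median 65.2) and from 0 to 17578 FPKM in the male culture (median 318.8). Sox17 (ENSMUSG00000025902, chr1:4490931-4497354, minus strand), an HMG-box factor of endoderm, reached 1 FPKM in 19 of 39 female cells (48.7%, 95% interval 32.4 to 65.2%) and 32 of 35 male cells (91.4%, 95% interval 76.9 to 98.2%), against 13.1% of ES and Epi cells. In all 4 markers the share was higher in the male culture, but with 1 culture per line the difference carries no test.

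To measure which lineage genes the cultures had gained, the mean FPKM of each of the 8 cultures was taken and the 2 motor neuron cultures were compared with the 6 ES and Epi cultures by limma. Of 15504 genes tested, 31.9% (4951) were higher and 3.57% (553) lower in the motor neuron cultures, where a call needs a change of at least 1 on the log2(mean FPKM + 1) scale and a p under 0.05 after Benjamini-Hochberg adjustment. Over all tested genes the changes had a median of 0.64. With cultures scaled to the same upper quartile, this median became -0.03 with 2542 genes called higher and 1785 called lower, so that 58.7% of calls were higher in place of 89.95%. As shares of the genes tested these are 16.4% and 11.5%. Counts per list are given below first on the deposited scale and then, in parentheses, with upper-quartile scaling, to be read against 31.9% and 16.4% for higher and 3.57% and 11.5% for lower genes. A culture mean does not tell apart how many cells carry a gene and how much each carries, which the values per cell show further on. A gene was tested where its mean over the 8 cultures was at least 1 FPKM. A gene whose mean over the 6 ES and Epi cultures is below that passes only through the motor neuron cultures, which fixes its direction, so a count of such genes describes a list and supports nothing. For the main lists the members that also reached 1 FPKM in that mean are counted separately.

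Pan-neuronal genes were higher in the motor neuron cultures. All 15 were called (14 with upper-quartile scaling), with a median change of 5.23, among them all 10 that reached a mean of 1 FPKM over the ES and Epi cultures. Tubb3 rose in both lines, by 5.86 (SE 0.54, adjusted p = 9.93e-04), from culture means of 6.70 to 26.9 FPKM in the other 6 cultures to 501.4 FPKM in the female motor neuron culture and 1621 in the male one. Isl1 rose by 6.68 (SE 0.39, adjusted p = 6.62e-04), but it averaged under 1 FPKM over the ES and Epi cultures, so the filter fixed its direction. Of 12 motor neuron genes 8 passed the filter of 1 FPKM on the mean over cultures, and 7 of them were higher (6), among them Isl1, Isl2, Foxp1, Phox2a, Prph and Ret. Only 3 of the 8 reached 1 FPKM over the ES and Epi cultures, and 2 of these were higher, Foxp1 and Prph. Neither was confined to neuron-like cells. Each was at 10 FPKM or more in 12 of 17 Id3-high cells, and they were so in 7 and 13 of 30 endoderm-like cells. Isl2 was at that level in 7 of 30 endoderm-like but only 3 of 22 neuron-like cells, so its rise is not one of neuron-like cells alone. The 4 cholinergic genes were called higher (4), namely the acetylcholine-synthesising enzyme Chat, the vesicular transporter Slc18a3, the choline transporter Slc5a7 and the esterase Ache, but 0 of them reached 1 FPKM over the ES and Epi cultures, so the filter fixed their direction. Of 12 hindbrain and spinal Hox genes 8 were tested and called higher (6). For 7 of these 8 the direction was fixed in the same way.

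Endoderm genes rose alongside them. All 9 endoderm regulators were called higher (8), with a median change of 3.78, as were all 12 genes of parietal endoderm and its basement membrane (11), with a median of 5.02. Of these, 6 regulators and 9 parietal genes reached 1 FPKM over the ES and Epi cultures, and each of them was among the higher genes. Of 14 visceral endoderm genes, 9 were tested and 7 were higher (4). In the ES and Epi cultures 6 of the 9 reached 1 FPKM, and 4 of these were higher. Sox17 rose by 5.80 (SE 1.45, adjusted p = 0.020), but the call did not hold under 5 of 16 alternatives. Its adjusted p was 0.0616 with no filter on low values, 0.0506 without the female 2i, 0.0503 without the male serum, 0.0618 without the female and 0.155 without the male motor neuron culture, in a range from 0.00546 to 0.155. Gata4 rose by 4.49 (SE 0.80, adjusted p = 0.00621) and had an adjusted p of 0.0568 without the male motor neuron culture, in a range from 0.00239. The gut and definitive endoderm list, with 4 of 9 genes tested by limma, had 0 calls on either scale and 0 genes at an unadjusted p under 0.05.

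The 5 called genes with the largest rise in both lines held members of both lineages. Cartpt rose by 11.15 (SE 0.24, limma adjusted p = 3.49e-05), to means of 2014 and 3068 FPKM in the female and male cultures, from at most 0.302 FPKM elsewhere. S100g, an intestinal and yolk sac calcium-binding protein, rose by 9.98 and Fxyd3, a regulator of the sodium pump, by 8.18. Cartpt and Fxyd3 (the latter at most 0.534 FPKM elsewhere) passed the filter only through the motor neuron cultures. Their direction was thus fixed, and their rises are a description only. Sncg, gamma-synuclein, rose by 8.64 and Gap43, a growth cone protein, by 8.38. By cluster, Cartpt, Sncg and Gap43 had their highest medians in the neuron-like cells and S100g and Fxyd3 in the endoderm-like cells.

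The 22 neuron-like cells expressed the pan-neuronal genes nearly in full. Each had 14 or 15 of the 15 pan-neuronal genes at 10 FPKM or more, in both cultures. Stmn2, a tubulin-binding protein of growing axons, ranged from 4792 to 7053 FPKM with a median of 5474 in the 7 female and from 3559.8 to 8916 FPKM with a median of 5177 in the 15 male cells. Elavl4, a neuronal RNA-binding protein, ranged from 352.9 to 990.01 FPKM with a median of 503.4 in the female and from 755.4 to 1915 FPKM with a median of 1485 in the male cells. No neuron-like cell lacked either gene, and the 2 cultures overlapped in both. Over the 22 cells the medians of the pan-neuronal genes ran from 12.7 FPKM for Rbfox3 to 5325 FPKM for Stmn2.

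Motor neuron and cholinergic genes were present in the same cells. Isl1 ranged from 547.8 to 940.6 FPKM with a median of 640.9 in the female and from 0 to 1132 FPKM with a median of 354.03 in the male neuron-like cells. It reached 10 FPKM in 21 of the 22 cells, with 1 male cell below. Slc18a3 ranged from 31.5 to 365.9 FPKM with a median of 152.7 in the female and from 78.4 to 673.6 FPKM with a median of 362.6 in the male cells and reached 10 FPKM in all 22. Ache did so in all 22 as well, and Chat in 4 of 7 female and 10 of 15 male cells. Prph, the intermediate filament peripherin, and Ngfr, the low-affinity neurotrophin receptor, reached 10 FPKM in all 22. Ret, the GDNF receptor kinase, did so in 7 of 7 and 13 of 15.

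Factors of spinal somatic motor neurons were rare in this cholinergic population. Mnx1 reached 10 FPKM in 1 of 15 male and 2 of 7 female neuron-like cells. Each of these 3 cells also had Isl1 at that level, while 18 cells had Isl1 without Mnx1 and 1 had neither.

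Lhx3, the partner of Isl1 in somatic motor neurons, reached 1 FPKM in 0 of 39 female cells (95% interval 0 to 9.03%) and 0 of 35 male cells (0 to 10.003%). Phox2a, a homeodomain factor, reached 10 FPKM in 2 of 7 female and 7 of 15 male neuron-like cells, and Tbx20, a T-box factor of hindbrain motor neurons, in 0 and 4. Isl2 reached it in 1 and 2, and Foxp1, a cofactor of limb-innervating and preganglionic neurons, in 6 and 15.

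**Figure D2:**
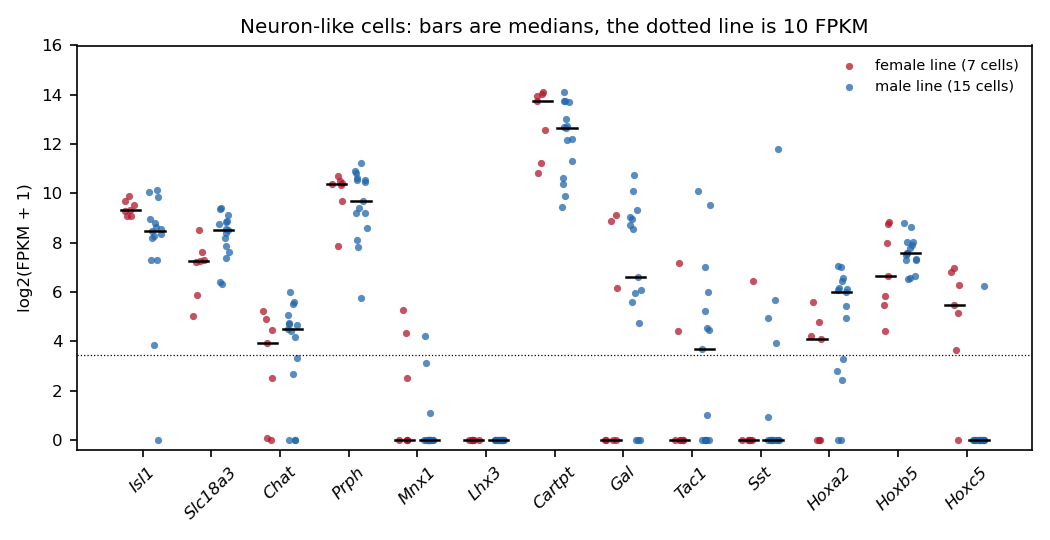
Level as log2(FPKM + 1) (vertical axis) of motor neuron, cholinergic, peptide and Hox genes in each of the 22 neuron-like cells, with 1 point per cell, red for the female (7 cells) and blue for the male culture (15 cells), bars at the medians and a dotted line at 10 FPKM. Isl1 and Slc18a3 are high in nearly every cell, whereas Mnx1 is at 10 FPKM or more in 1 of 15 male and 2 of 7 female cells and Hoxc5 in 1 of 15 and 6 of 7.

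Hox genes set position along the body axis, from anterior ones of the hindbrain to posterior ones of the lumbar cord. Hoxb5 ranged from 20.6 to 453.9 FPKM with a median of 99.7 in the female and from 92.4 to 447.98 FPKM with a median of 188.9 in the male cells and was at 10 FPKM or more in all 22. Hoxc5 reached 10 FPKM in 6 of 7 female but 1 of 15 male cells, and Hoxb6 in 6 and 2. Hoxa2, a gene of the anterior hindbrain, reached it in 4 of 7 and 10 of 15. Hoxc8, Hoxb9 and Hoxc10, which mark brachial to lumbar cord, reached 10 FPKM in 0, 1 and 0 of the 22 cells. Of 6 forebrain and midbrain genes only Otx2 passed the filter, and it was lower in the motor neuron cultures on both scales.

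Cartpt apart, neuropeptide genes were present in some neuron-like cells and not in others. Cartpt was high in all 22, from 1803 to 17720.2 FPKM with a median of 13599 in the female and from 698.2 to 17578 FPKM with a median of 6505 in the male cells. Galanin (Gal) reached 10 FPKM in 3 of 7 female and 12 of 15 male cells, and Tac1, the substance P precursor, in 2 and 8. Adcyap1, which encodes PACAP, reached it in 1 and 11. Somatostatin (Sst) reached it in 1 and 4 cells, with a highest value of 3610.4 FPKM. Over whole cultures 9 of 13 neuropeptide genes were tested, 4 were higher (4), namely Cartpt, Sst, Tac1 and Gal, and Npy was lower. Of the 9, 5 reached 1 FPKM over the ES and Epi cultures, and 1 of these was higher and 1 lower. The filter fixed the direction of the other 3 higher genes, Cartpt among them.

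Cartpt and Sst are printed here because the RefSeq promoter windows of both peptide genes hold a full cAMP response element, TGACGTCA, shown in capitals. It was searched on both strands of the 250 bases before each RefSeq start in the promoter table (build GRCm38.p6). The element was found in 508 of 32851 windows, 1.55%, and in 2 of 12 windows of the 10 neuropeptide genes that matched the table. The stretches of 30 bases lie at chr13:99900777-99900806 and chr16:23890874-23890903, both on the minus strand. In each case 1 annotated GENCODE exon overlaps the window of 250 bases. The Cartpt stretch lies inside the annotated GENCODE span of Cartpt itself (chr13:99898489-99901091). It thus precedes the RefSeq start used but not the annotated start of the gene. The gene of the overlapping exon, and whether that exon covers the stretch, were not checked. A match describes these letters and is neither a shown binding site nor a cause of the levels.
Cartpt: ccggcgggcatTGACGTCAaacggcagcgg
Sst: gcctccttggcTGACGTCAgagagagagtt

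Genes of glutamatergic, GABAergic and interneuron classes were scarce in the neuron-like cells, whereas the monoamine transporter gene Slc18a2 was not. Slc17a6, the vesicular glutamate transporter of spinal interneurons, and Gad1, which makes GABA, reached 1 FPKM in 0 of the 22 neuron-like cells. No gene of the glutamate list (3 genes) passed the filter, and of 5 GABA and glycine genes 2 were tested with 0 calls. Of 13 ventral interneuron genes 4 were tested by limma with 0 calls on either scale, and in both lists 0 genes had an unadjusted p under 0.05. Of 9 dorsal interneuron genes only Pou4f1 passed the filter, and it was called higher on the deposited scale alone. Pou4f1 reached 10 FPKM in 2 of 7 female and 5 of 15 male neuron-like cells, each of which also had Isl1 at that level. Slc18a2, the vesicular monoamine transporter, was at 1 FPKM or more in 20 and at 10 FPKM or more in 13 of the 22 neuron-like cells, from 0 to 107.4 FPKM with a median of 15.5. It reached 10 FPKM in 0 of 30 endoderm-like cells. Over whole cultures it was the single gene called of 2 tested in the monoamine list of 7, and it was under 1 FPKM in the mean of the ES and Epi cultures.

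Neural progenitor genes were less present than neuronal ones, though some were common in the Id3-high cells. Of 15 progenitor genes 7 were tested and 3 were higher (2): Nes, an intermediate filament of progenitors, Nkx6-1, a ventral homeodomain factor that some motor neurons keep, and Fabp7 of radial glia. Of the 7, 6 reached 1 FPKM over the ES and Epi cultures, and 2 of these were higher. Olig2, the factor of motor neuron progenitors, reached 10 FPKM in 0 of 22 neuron-like cells and 0 of 30 endoderm-like cells. Among the 17 Id3-high cells Nes reached it in 14, Fabp7 in 11 and Sox2 in 7, but Sox1 and Pax6 in 1 each and Olig2 in 0. The neuron-like counts of Nes, Fabp7 and Sox2 were 3, 11 and 1 of 22. In the floor plate list 2 of 3 tested genes were higher (2), Foxa2 and Spon1, and the filter fixed the direction of 1 of them. Foxa2 is also an endoderm regulator, and it reached 10 FPKM in 5 of 22 neuron-like and 30 of 30 endoderm-like cells.

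The 30 endoderm-like cells expressed the regulators of extraembryonic endoderm together. Each had 6 to 9 of the 9 regulators at 10 FPKM or more, with a median of 8 in both cultures. Sox17 ranged from 62.5 to 606.8 FPKM with a median of 213.5 in the 13 female and from 26.7 to 2419 FPKM with a median of 499.2 in the 17 male cells. Gata4, a zinc finger factor of primitive endoderm, ranged from 33.6 to 221.7 FPKM with a median of 125.9 in the female and from 10.6 to 296.97 FPKM with a median of 87.8 in the male cells. Gata4 and Foxa2 reached 10 FPKM in all 30. Dab2, an endocytic adaptor of this tissue, ranged from 71.4 to 447.99 FPKM with a median of 226.4 in the female and from 334.5 to 2377 FPKM with a median of 995.4 in the male cells. Hnf4a, a factor of visceral endoderm, was at 1 FPKM or more in 4 of 13 and 9 of 17 cells.

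The RefSeq promoter window of Foxa2 is shown because Foxa2 was at 10 FPKM or more in every endoderm-like cell and the window carries the letters AGATAA, a motif bound by GATA factors, in capitals. The 250 bases before its start lie at chr2:148045465-148045714 (GRCm38.p6, minus strand). Searched on both strands, AGATAA was in 3281 of 32851 windows, 9.99%. It was in 2 of 8 windows of the 4 endoderm regulators that matched the table, those of Foxa2 and Hnf4a. The motif was not particular to this list, being in 3 of 12 neuropeptide and 2 of 14 pan-neuronal windows. In parietal and visceral endoderm genes it was in 0 of 10 and 0 of 15 windows. The match was not tested as a binding site.
Foxa2: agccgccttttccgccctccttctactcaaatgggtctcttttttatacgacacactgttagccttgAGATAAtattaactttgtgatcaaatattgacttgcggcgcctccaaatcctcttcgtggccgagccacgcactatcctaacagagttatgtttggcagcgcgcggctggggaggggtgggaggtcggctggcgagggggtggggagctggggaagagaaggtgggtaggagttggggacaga

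Basement membrane and other parietal genes were high in these cells, with medians over the 30 cells from 16.7 FPKM for Thbd to 6095 FPKM for Sparc. Sparc, a collagen-binding matrix protein, ranged from 1626 to 5422 FPKM with a median of 3320.4 in the female and from 3173 to 29674 FPKM with a median of 10969.7 in the male cells. Lama1, the laminin alpha 1 chain, ranged from 90.1 to 349.9 FPKM with a median of 213.7 in the female and from 82.5 to 868.99 FPKM with a median of 271.2 in the male cells, and Col4a1, a type IV collagen chain, from 217.3 to 896.3 FPKM with a median of 427.8 and from 66.1 to 1336 FPKM with a median of 525.8. Srgn, the proteoglycan serglycin, ranged from 83.8 to 2535 FPKM with a median of 340.5 in the female and from 550.6 to 7643 FPKM with a median of 2273 in the male cells. Medians of Sparc, Srgn and Dab2 were higher in male than in female endoderm-like cells, whereas that of S100g was lower. S100g ranged from 252.97 to 22984 FPKM with a median of 4898 and from 277.6 to 51752 FPKM with a median of 2419.9.

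Visceral genes were present in part. Ttr, the transthyretin carrier, reached 1 FPKM in 9 of 13 female and 17 of 17 male endoderm-like cells, ranging from 0 to 208.3 FPKM with a median of 22.1 in the female and from 20.5 to 1027 FPKM with a median of 125.1 in the male cells. Rhox5, a homeobox gene of extraembryonic lineages, ranged from 47.98 to 3397 FPKM with a median of 2085 and from 17.5 to 2938 FPKM with a median of 1939.5. The endocytic receptor genes Amn and Cubn reached 10 FPKM in 4 and 2 of 13 female and 2 and 3 of 17 male cells. The yolk sac transport genes Afp, Apoa1, Apoa4 and Apob reached 10 FPKM in 3, 1, 0 and 0 of the 30 cells. Among epithelial genes, tested in full (7), Krt8, Krt18, Krt19 and Cldn6 were higher over whole cultures and Cdh1, the epithelial cadherin, was lower (4 higher and 2 lower with upper-quartile scaling). The keratin gene Krt18 ranged from 152.6 to 2540.1 FPKM with a median of 721.3 in female and from 13.9 to 1837 FPKM with a median of 488.1 in male endoderm-like cells.

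Some pluripotency genes, Pou5f1 among them, remained high in a part of the female cells. The 5 Pou5f1-high cells were led by Pla2g1b, Pou5f1, D630023F18Rik, Dppa5a, Nodal, Rec114, Hormad1, Mlana, Mylpf and 1700013H16Rik. Pou5f1 in them ranged from 79.2 to 624.5 FPKM with a median of 349.2, Dppa5a from 2147 to 5941 FPKM with a median of 3243, and Utf1 from 40.4 to 472.98 FPKM with a median of 385.3. Nanog, by contrast, reached 10 FPKM in 1 of the 5, and Tdgf1, the Nodal co-receptor, in 4. Outside this group, Pou5f1 reached 10 FPKM in 6 of the 14 female Id3-high cells and 100 FPKM in 2 of them, with a highest value of 206.7 FPKM. It reached 10 FPKM in 0 of the other cells. Other genes of the list were spread differently. Klf4 reached 10 FPKM in 18 of 30 endoderm-like but 0 of 5 Pou5f1-high cells, and L1td1 in 15 and 4. Over whole cultures 0 of 14 pluripotency genes were higher by limma (0 at an unadjusted p under 0.05) and 5 were lower on both scales: Pou5f1, Nanog, Esrrb, Tdgf1 and Dnmt3b. Pou5f1 reached 1 FPKM in 17 of 39 female cells (43.6%, 95% interval 27.8 to 60.4%) and 2 of 35 male cells (5.71%, 95% interval 0.70 to 19.2%).

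Dppa5a, an RNA-binding protein gene of pluripotent cells, went on being present outside that group. It was at 10 FPKM or more in 39 of 39 female and 16 of 35 male cells. Its median in female neuron-like, endoderm-like and Id3-high cells was 175.4, 167.1 and 287.4 FPKM. The male medians were 8.06, 10.2 and 6.53 FPKM. In each cluster the female median was thus the higher one, without a test. The female culture was also the one that held the Pou5f1-high cells, where the Dppa5a median was 3243 FPKM, and the part of shared free RNA in these values was not tested.

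The 17 Id3-high cells were led by Id3, Emp3, Anxa1, S100a6, Tpm2, Bmp4, Perp, Hspb8, Cavin1 and Prss23. Genes of contractile and matrix-producing mesenchyme were common in its 14 female cells. Acta2, smooth muscle actin, ranged from 80.5 to 13298 FPKM with a median of 716.9, and Tagln, an actin-binding protein, from 72.2 to 4183 FPKM with a median of 621.1, with both at 10 FPKM or more in all 14. Col1a1, a fibrillar collagen chain, and Dcn, the proteoglycan decorin, reached 10 FPKM in 11 and 9 of the 14. The 3 male cells of this cluster had more neuronal and endoderm genes. At 10 FPKM or more they had 10 to 13 pan-neuronal genes and 3 to 5 endoderm regulators, against 5 to 11 and 0 to 2 in the 14 female cells. In the male cells Tubb3 ranged from 149.3 to 2209 FPKM with a median of 460.4 and Sox17 from 52.4 to 352.9 FPKM with a median of 53.3. Over whole cultures 2 of 6 tested mesenchyme genes were higher (2), Acta2 and Tagln, while 0 of 4 mesoderm genes were called by limma (1 lower at an unadjusted p under 0.05).

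Cell cycle genes had lower medians in the neuron-like than in the endoderm-like cells, but not all of them were low. Top2a, a topoisomerase of dividing cells, had medians of 5.02 and 20.8 FPKM in female and male neuron-like cells, against 187.3 and 111.7 in endoderm-like cells. Mki67, a marker of proliferation, had medians of 0.0287 and 0 against 18.4 and 9.76. The ranges overlapped, since Top2a ranged from 0 to 177.2 FPKM with a median of 20.8 in male neuron-like cells. Of the 22 neuron-like cells, Pcna reached 10 FPKM in 21, Mcm6 in 20 and Cdk1 in 14. Their medians there were 33.4, 37.9 and 44.1 FPKM, against 77.6, 145.7 and 688.2 in endoderm-like cells. Over whole cultures 0 of 12 cell cycle genes were higher by limma (0 at an unadjusted p under 0.05). The genes Mcm2 and Mcm5, of the helicase that opens replication origins, were lower, and 8 were lower with upper-quartile scaling.

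Neuronal genes varied together over the cells, as did endoderm genes, and the 2 sets varied against each other. Spearman rho was computed over the 39 female and the 35 male cells separately, as a description. The cells of a culture share its preparation, and rho over all cells of a culture includes the differences between its clusters. Over all 56812470 pairs of 10660 genes the median rho was 0.04 in female and 0.02 in male cells, with the middle 90% between -0.30 and 0.38 and between -0.40 and 0.45. Among the 15 pan-neuronal genes every pair was positive in both cultures, with medians of 0.61 and 0.86. Pan-neuronal genes had a median rho of 0.49 and 0.71 with motor neuron genes, 0.58 and 0.80 with cholinergic genes, and 0.47 and 0.64 with Hox genes. Genes entered if at 1 FPKM or more in at least 20% of the cells of each culture. These were 5 of 12 motor neuron genes (without Mnx1 and Lhx3), 3 of 4 cholinergic and 6 of 12 Hox genes. Over all cells of a culture Isl1 and Slc18a3 had a rho of 0.63 in female and 0.72 in male cells. Within the neuron-like cells alone their rho was 0.64 in 7 female and -0.35 in 15 male cells. Values over all cells thus do not show that such genes vary together among the neuron-like cells.

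Endoderm regulators also went together, with medians of 0.64 and 0.70 among themselves, 0.60 and 0.72 with basement membrane genes and 0.56 and 0.65 with visceral genes. Here 8 of 9 regulators and 7 of 14 visceral genes entered. With the 5 of 14 pluripotency genes that entered, Pou5f1 not among them, the regulators had medians of 0.09 and 0.47. Against the pan-neuronal genes, 0 of 120 pairs were positive in either culture, with medians of -0.44 and -0.75. Cell cycle genes went with the endoderm regulators (0.33 and 0.49) and against the pan-neuronal genes (-0.44 and -0.60). Not every list held together: 4 neural progenitor genes had medians of 0.02 and 0.18 among themselves, and the single pair of neuropeptide genes had 0.02 and 0.09, all within the middle 90% of all gene pairs. Of the 8 mesenchyme genes only Acta2 and Tagln were at 1 FPKM in enough cells of both cultures to enter, and they had medians of 0.11 and 0.02 with the pan-neuronal genes. Both were also common outside the Id3-high cells, with Acta2 at 10 FPKM or more in 17 of 22 neuron-like and 25 of 30 endoderm-like cells. As a comparison, 6 ubiquitous genes had medians of 0.16 and 0.34 among themselves.

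**Figure D3:**
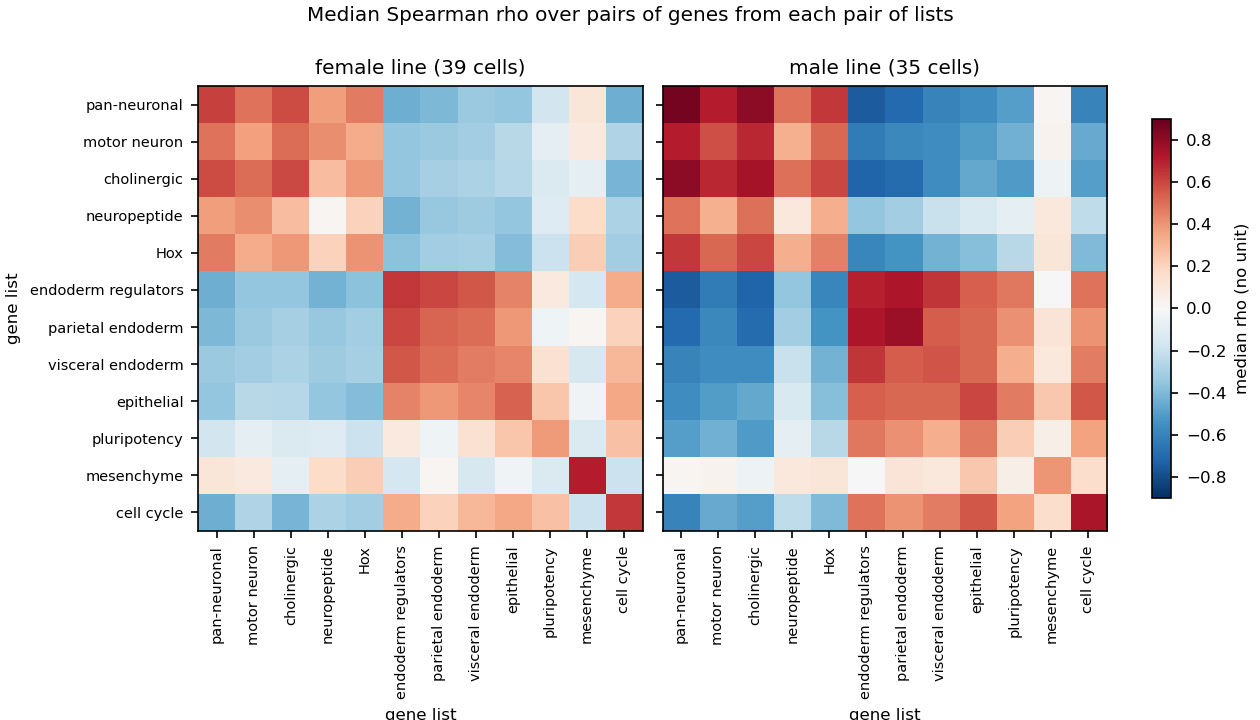
Median Spearman rho over gene pairs for each pair of 12 gene lists (rows and columns), in the 39 female cells (left) and 35 male cells (right), coloured from blue (negative) to red (positive). Neuronal, motor, cholinergic and Hox lists form a positive block and the endoderm lists another, with negative values between them, down to -0.75 for endoderm regulators and pan-neuronal genes in the male cells.

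The 4 marker genes showed the same arrangement. Tubb3 and Cartpt had a rho of 0.60 in female and 0.91 in male cells, and Tubb3 and Isl1 of 0.47 and 0.64. Tubb3 and Sox17 had -0.44 and -0.75, and Isl1 and Sox17 -0.35 and -0.62. Sox17 and Gata4 had 0.76 and 0.69.

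**Figure D4:**
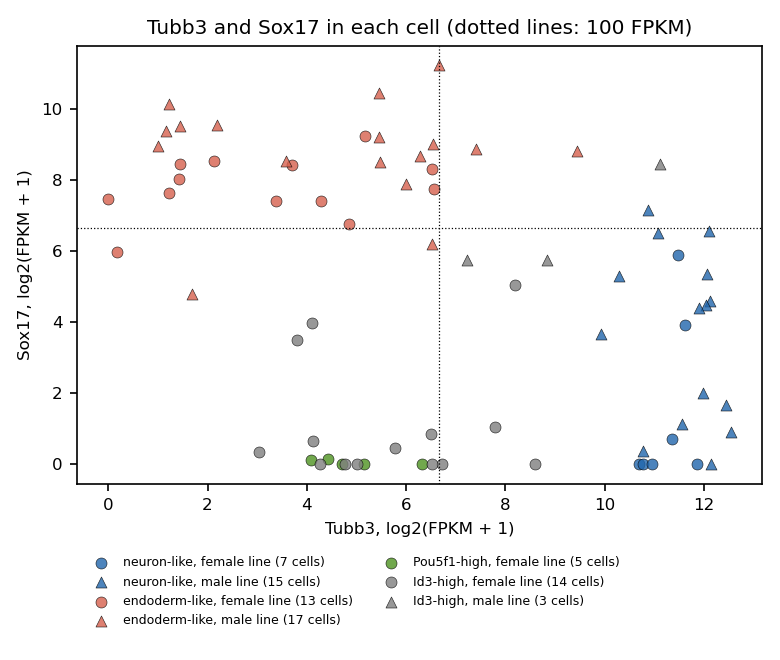
Tubb3 (horizontal axis) against Sox17 (vertical axis), both as log2(FPKM + 1), with 1 point per cell, coloured by cluster and shaped by culture, and dotted lines at 100 FPKM. Neuron-like cells lie at high Tubb3 and mostly at low Sox17, endoderm-like cells at high Sox17, and 4 of 74 cells have both genes at 100 FPKM or more.

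Cells with many genes of both programs were found in the male culture. Tubb3 and Sox17 were together at 10 FPKM or more in 34 of the 74 cells, but together at 100 FPKM or more in 4. Counting genes at 10 FPKM or more, 0 of 39 female and 4 of 35 male cells had at least 10 pan-neuronal genes and at least 6 endoderm regulators. A further 8 male and 0 female cells had at least 10 pan-neuronal genes with 3 to 5 regulators, 5 of them neuron-like and 3 Id3-high, which makes 12 of 35 male against 0 of 39 female cells with at least 3 regulators. Of the 4 with at least 6 regulators, 1 was neuron-like, with 15 pan-neuronal genes and 6 regulators, Tubb3 at 2148 FPKM, Sox17 at 90.7 FPKM and 12914 genes at 1 FPKM or more, the most of any male cell. The other 3 were endoderm-like, with 10 or 11 pan-neuronal genes, Tubb3 at 99.8, 91.5 and 692.6 FPKM, Sox17 at 2419, 72.3 and 450.3 FPKM, and Isl1 at no more than 0.261 FPKM. Whether any of them held the RNA of more than 1 cell was not tested.

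Below that level, the abundant genes of each lineage appeared in the other one at a small percentage of their level. The endoderm-like median was 0.823% of the neuron-like median for Cartpt (54.3 against 6598 FPKM), 0.496% for Tubb3, 1.03% for Gap43 and 1.25% for Nefl. In the other direction, the neuron-like median was 2.42% of the endoderm-like one for S100g, 1.97% for Sparc, 2.21% for Srgn and 2.01% for Sox17. In neuron-like cells these medians differed by culture, with Sox17 at 0 FPKM in female and 19.96 in male cells and Srgn at 0 and 78.4. Isl1 and Elavl4, by contrast, had endoderm-like medians of 0 and 0.0992 FPKM. For some of these genes the low level was near that of the ES and Epi cells, whose medians were 155.7 FPKM for Sparc, against 120.2 in neuron-like cells, and 9.19 for Tubb3, against 15.3 in endoderm-like cells. For Nefl the ES and Epi median was 3.20 FPKM, and for Cartpt, Gap43, S100g, Srgn and Sox17 it was 0. Shares of cells at 1 FPKM for Tubb3, Cartpt and Sox17 include this low level, and the part of free RNA or mixed wells in it was not tested.

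Genes whose level followed each marker most closely in both cultures were named by the smaller of both within-culture rho values. Those most like Tubb3 were Uchl1, a neuronal ubiquitin hydrolase (0.80 and 0.94 in female and male cells), Npdc1, Sncg, Ptn, Nefm and Snhg11, and the lowest rho values were those of Tgfbr3 (-0.70 and -0.75), Soat1 and Morc4. Those most like Cartpt were the neurofilament genes Nefl (0.85 and 0.86) and Nefm, then Sncg, Ptn, Gprasp1 and Prph, with Dek, Lman2 and Banf1 lowest. Among those most like Isl1 were Pfkp (0.74 and 0.84), Dnajc6, Ackr1, Rab3a and Ncan, with Plod2, Vkorc1 and Sparc lowest. Those most like Sox17 were Dab2 (0.78 and 0.77), Rcn1, P4ha2, Srgn, Col4a2 and Cmtm7, with Slc29a4 and Ccdc88a among the lowest. These ranks are over 39 and 35 cells among protein-coding genes at 1 FPKM or more in at least 20% of the cells of each culture.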

How the data were processed

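Per the labels' protocols, RNA of single cells was amplified by SMART-seq2 and tagmented with Tn5. The authors deposited FPKM per gene and cell. STAR 2.4.1, Cufflinks, Cuffnorm 2.2.1 and the build mm10 are named in the submitters' processing notes, with no role or order, and cell filters are not given in the sources used here. Of 43628 gene IDs, 42548 matched GENCODE vM21 (GRCm38), which gave symbols and positions. The depth is unknown, since FPKM and not counts were used, so values near 1 FPKM are imprecise. Every value column mapped to a sample.

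Genes were tested on the mean FPKM of 8 cultures (4 states, 2 lines) as log2(mean FPKM + 1), with limma 3.58.1 (trend = TRUE, R 4.3.3), a coefficient for each state (4 residual degrees of freedom), over genes averaging at least 1 FPKM. The contrast was motor neuron against the mean of 2i, serum and Epi, with Benjamini-Hochberg adjustment over all 15504 genes, and the script was tested on simulated data. The lines serve as replicates of a state. The labels give the same pair of lines for every state, so the line pairs the cultures. Female minus male deviations of the motor neuron cultures correlated with those of the other states with Pearson r of 0.0605 to 0.163. Values within cultures (shares, Spearman rho, Ward clusters of log2(FPKM + 1) for 1000 genes) carry no test.

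The members and the 30 gene lists (270 genes) were chosen with earlier results of these data known. Genes are named from these lists, by closeness to the 4 markers, by mean level, as the leading 10 of a cluster, or as the 5 largest called rises in both lines, and some genes that meet these rules are not reported here. Alternatives were a pseudocount of 0.1, filters of none or 5 FPKM, other scalings, averaging log2 values, the line as a block, omission of each culture or of cells with few genes, other thresholds (0.1, 10 and 100 FPKM), other cluster settings, and either run of title numbers (up to 48, and from 49). Promoter windows are those of RefSeq. Python 3.11.15 with scipy 1.17.1 was used.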

Additional observations from a re-analysis of the deposited data

Results flagged for a closer look

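For 3 of the listed or named genes that were tested, the 2 lines moved in opposite directions by at least 1 each on the log2(mean FPKM + 1) scale between the motor neuron cultures and the mean of the other states. Opposite signs of any size were seen in 35. For the 3 genes, each line is 1 culture per state, so the difference was not tested. Tnnt2, cardiac troponin T, had a female change of 2.23 and a male change of -1.71. S100a6, a calcium-binding protein, had 2.92 and -1.73. Bmp4, a secreted growth factor, had 1.77 and -1.90. S100a6 and Bmp4 were among the 10 leading genes of the Id3-high cluster, which held 14 female and 3 male cells.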

How the results depend on the processing

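Genes called higher numbered 4951, 31.9% of those tested. They numbered 3291 (33.02%) with a filter at 5 FPKM, 2291 (19.8%) with log2 values averaged over cells, 2510 (16.4%) with each cell rescaled to the same sum and 2542 (16.4%) with upper-quartile scaling. Genes called lower numbered 553, and 337 (0.995%) with no filter, 1275 (10.998%), 1272 (8.33%) and 1785 (11.5%) under the last 3 of these settings. Leaving out 1 culture at a time, where a lone culture is assumed to vary like the others, gave 24.1 to 32.5% higher. It gave 2.24% (without the male motor neuron culture) to 6.30% (without the male Epi culture) lower. With the line as a replicate block, which pairs the cultures of a line, 5071 genes (32.7%) were higher and 608 (3.92%) lower, and the block changed no call of the 13 single genes followed through these settings. Their log2 changes kept their direction wherever tested, and 6 calls were lost, 5 of Sox17 and 1 of Gata4.

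Of 90 correlations under alternatives, 15 moved and 1 changed sign. Pou5f1 with Sox17 over male cells was 0.0858 given the number of genes. The cause was not tested. The 5 Pou5f1-high cells joined others in a cluster of 22 cells at 3 clusters, 19 with 500 genes, 8 with more genes, 20 with average linkage, 19 with rescaled cells and 9 with the female culture alone. Unknown depth limits what values near 1 FPKM can show.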

Other observations

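The most abundant protein-coding genes, leaving out ribosomal and mitochondrially encoded ones, were the actin-binding peptide gene Tmsb4x (mean 9628 FPKM in female and 6502 FPKM in male cells) and Actb (5957 and 6883 FPKM). The female list went on with Cox4i1, Cox7b, Rack1, Atpif1, Atp5j, Atp5b, Cox6b1 and Bex3, mostly genes of the respiratory chain. The male list held lineage genes in their place: Sparc, S100g, Sncg and Cartpt stood beside Cox4i1, Atp5b and Atp5j. Their means rest on a part of the cells, since S100g had a male mean of 4237 FPKM and a median of 507.6.

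Other lists had few tested genes, and calls over whole cultures are counted on the deposited scale and then with upper-quartile scaling. Over all tested genes 31.9% and 16.4% were higher and 3.57% and 11.5% lower. Of 3 tested neural crest genes, Ets1 and Ngfr were higher (1 with upper-quartile scaling), and the filter fixed the direction of 1 of them. Of 2 tested roof plate genes Msx2 was higher (0), and of 4 glial genes Mbp was higher (0) and Olig1 lower (1). Tek was the single gene called of 3 in the endothelial and blood list, and the filter fixed its direction. The 3 tested cardiac and 5 tested trophoblast genes had 0 calls by limma, with 1 cardiac and 0 trophoblast genes at an unadjusted p under 0.05. Of 5 tested stress genes Fos, Jun and Atf3 were higher (3), and of 6 ubiquitous genes 1 was higher and 1 lower (0 and 4).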
